A study of Mus musculus with 2 samples.

Results

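The genes described here are the chemokines and the chemokine receptors, chosen by symbol: every gene in the deposited tables named Ccl, Cxcl, Cx3cl, Xcl, Ccr, Cxcr, Cx3cr or Xcr followed by a number, with at least 20 counts over both libraries. Of 49 such genes reported, 40 passed, namely 26 ligands and 14 receptors, out of 19059 genes measured. The 9 that did not pass were the ligands Ccl8, Ccl11, Ccl20, Ccl26, Cxcl3, Cxcl15 and Cxcl17 and the receptors Ccr8 and Ccr10, which held 0 to 16 counts each. Just inside the minimum were Ccr3 with 45 counts, Ccr4 with 46 and Ccl1 with 49, and just outside it were Ccl8 and Ccr8 with 16 each.

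Chemokines are small secreted proteins that guide leukocytes along a gradient, and their receptors are G protein-coupled receptors on the cells that move. Families are named for the spacing of conserved cysteines, and many ligands bind more than 1 receptor. In the steatotic liver they are known above all for drawing monocytes, neutrophils and lymphocytes into the tissue, where incoming cells join the resident macrophages called Kupffer cells.

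The data are 2 single-cell libraries made from fixed livers of 27-week-old mice, 1 library per genotype, with RNA read by probes. The library labelled AEG-1DMAC came from a mouse line in which AEG-1, the product of the gene Mtdh, is deleted by Cre expressed from the Lyz2 promoter (LysM/Cre), which is active in macrophages, monocytes and neutrophils. The library labelled AEG-1fl/fl came from the floxed littermate line without Cre, and floxed AEG-1 alleles on a C57BL/6/J background are shared by both. Mice of both groups ate HF/HSD, a high-fat and high-sugar diet, from 7 weeks of age for 20 weeks. Whether a library held 1 animal or several is not given in the sources used here.

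With 1 library per group there is no replicate check, so no test was made and no p-value is given. Levels are CPM, a gene's counts scaled to a class total of 1000000, with exact Poisson 95% intervals where shown. A difference is the log2 ratio of CPM, AEG-1DMAC over AEG-1fl/fl, with a 95% Clopper-Pearson interval. These intervals cover counting error only. They leave out how cells of 1 library vary and say nothing of how 2 mice of the same genotype would differ. The probe number differs between genes, so each gene is compared between classes and libraries and never with another gene.

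The deleted gene went against the labels. Mtdh had 333 counts in the macrophage-like cells of the library labelled AEG-1DMAC and 162 in those of the library labelled AEG-1fl/fl, which is 124 against 26.9 CPM and a log2 ratio of 2.21 (1.93 to 2.49). In monocyte-like cells Mtdh stood at 169 and 43.2 CPM in the same order, and in hepatocyte-like cells at 61.4 and 57.6 CPM. Where the Mtdh probes lie with respect to the deleted part of the gene is not given in the sources used here. Neither the position of the probes nor an exchange of the labels was tested as a cause of this difference. Libraries are therefore named by their labels, and no direction below is a statement on the deletion.

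After quality filters, 2571 cells of the library labelled AEG-1DMAC and 3508 of the library labelled AEG-1fl/fl remained, from 79589511 and 90440089 counts over the deposited cells, and 10 cell barcodes occurred in both libraries. Cells were put into classes by marker genes with no chemokine or receptor among them. Macrophage-like cells numbered 259 in the library labelled AEG-1DMAC, 10.1% of its cells (8.94 to 11.3), and 680, or 19.4% (18.1 to 20.7), in the other. In the same order there were 206 and 335 stellate-like cells, 60 and 111 T and NK-like, 49 and 78 B-like, 27 and 37 monocyte-like, 23 and 55 conventional dendritic-like, and 5 and 12 plasmacytoid dendritic-like cells. The 13 neutrophil-like cells of the library labelled AEG-1DMAC, against 62 in the other, made up its least certain class: 12 of them lay in a cluster of hepatocyte-like cells, and 1 of 10 neutrophil markers was at 0. Most markers were highest in their own class (17 of 20 and 20 of 20 in macrophage-like cells, 12 of 12 in T and NK-like cells of both, 11 and 12 of 18 in hepatocyte-like cells). These are the markers that set the classes, so this is no separate check of the class names. Even so, of 5 monocyte markers only 2 were highest in monocyte-like cells of the library labelled AEG-1fl/fl. Cells differed in depth: the median cell held 5537 and 5668.5 counts in macrophage-like, 4699.5 and 5774 in stellate-like, 4038 and 2786 in T and NK-like and 23736 and 20775 in hepatocyte-like cells. Shares of cells carrying a gene are therefore given after thinning every cell to 2000 counts in 1 random draw, which left out 40 and 116 shallower macrophage-like, 41 and 67 stellate-like, 13 and 24 T and NK-like and 97 and 117 hepatocyte-like cells. Hepatocyte markers were counted in every class. Their share of the macrophage-like counts was 46.3% of their share in hepatocyte-like cells in the library labelled AEG-1DMAC and 30% in the other. In the same order it was 66% and 52.3% in stellate-like cells and 73.3% and 57% in T and NK-like cells. The part of hepatocyte RNA in the ratios below was not tested beyond the subtraction described under the processing.

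Members of the family lay together on a few chromosomes. In GENCODE vM21 on GRCm38, 10 ligand genes and Ccr7 were on chromosome 11, 7 ligand genes on chromosome 5 and 8 receptor genes on chromosome 9. Ccl9 and Ccl6, the ligands of Ccr1 that macrophage-like cells held at high levels, are neighbours on the minus strand of chromosome 11, at 83572919 to 83578636 and 83587882 to 83593087. Promoters of 5 ligands that the results below turn on are printed here, because they let a reader compare neighbouring genes (Ccl9 and Ccl6), genes whose counts sat in a few cells (Cxcl1 and Cxcl10) and the gene with the highest ratio in macrophage-like cells (Cxcl13). Each is the 250 bases before the transcript start in RefSeq, build GRCm38.p6, 5′ to 3′ on the gene's strand, and capitals mark matches to the NF-kB consensus, with overlapping matches drawn as 1 site.
Ccl9 (chr11:83578637-83578886, minus strand): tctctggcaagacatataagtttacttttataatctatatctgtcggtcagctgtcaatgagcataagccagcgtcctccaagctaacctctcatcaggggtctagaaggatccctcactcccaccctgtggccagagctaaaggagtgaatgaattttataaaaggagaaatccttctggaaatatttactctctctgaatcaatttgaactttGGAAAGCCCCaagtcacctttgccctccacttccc
Ccl6 (chr11:83593088-83593337, minus strand): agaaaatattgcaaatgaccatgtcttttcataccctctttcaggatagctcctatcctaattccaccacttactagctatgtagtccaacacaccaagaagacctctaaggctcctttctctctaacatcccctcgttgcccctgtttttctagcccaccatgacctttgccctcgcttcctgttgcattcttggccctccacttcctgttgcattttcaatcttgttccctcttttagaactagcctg
Cxcl1 (chr5:90890995-90891244, plus strand): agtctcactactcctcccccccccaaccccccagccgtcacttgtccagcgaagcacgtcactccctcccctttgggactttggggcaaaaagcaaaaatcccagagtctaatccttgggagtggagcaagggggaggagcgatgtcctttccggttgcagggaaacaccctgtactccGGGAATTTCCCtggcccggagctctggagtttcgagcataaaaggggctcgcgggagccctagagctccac
Cxcl10 (chr5:92348890-92349139, minus strand): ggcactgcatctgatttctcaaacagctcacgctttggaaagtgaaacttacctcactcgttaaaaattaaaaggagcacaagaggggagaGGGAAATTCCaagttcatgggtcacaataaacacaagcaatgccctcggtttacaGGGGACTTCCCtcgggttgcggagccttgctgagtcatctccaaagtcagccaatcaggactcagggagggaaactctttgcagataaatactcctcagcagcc
Cxcl13 (chr5:95956689-95956938, plus strand): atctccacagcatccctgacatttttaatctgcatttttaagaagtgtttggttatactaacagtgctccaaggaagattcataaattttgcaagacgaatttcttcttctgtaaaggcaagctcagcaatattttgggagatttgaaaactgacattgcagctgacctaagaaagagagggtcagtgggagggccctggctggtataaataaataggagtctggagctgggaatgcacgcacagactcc
Of 40 members, 31 had an entry in the RefSeq promoter table, and the NF-kB consensus, searched on both strands, was present in 8 of them: Ccl1, Ccl9, Cxcl1, Cxcl2, Cxcl10, Ccr1, Ccr3 and Ccr6. Of all 32851 promoters, 7.25% held it. The match began 35 bases before the start in Ccl9, 71 in Cxcl1, and 159 and 104 in Cxcl10, and the Ccl6 and Cxcl13 windows held none. The PU.1 core GAGGAA was in 9 of the 31 members (23.3% of all promoters) and the GAS letters TTCNNNGAA in 3 of 31 (7.02%), again on both strands, and neither was in the 5 windows printed. No overlap between these motifs occurred in the printed windows. These matches describe letters and not binding.

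The class of a gene is given as the one with the highest mean CPM over both libraries, among classes with at least 20 counts of it. Stellate-like cells were the highest class for 7 of the 26 ligands. Cxcl12, which binds Cxcr4 and retains blood cells in marrow and other tissues, was at 1755 CPM (3269 counts) in stellate-like cells of the library labelled AEG-1DMAC and 2091 CPM (7416 counts) in those of the other. In hepatocyte-like cells it was at 165 and 172 CPM, so the stellate-like level was 10.66 and 12.14 times higher. Most stellate-like cells carried it: with cells thinned to 2000 counts, Cxcl12 was found in 91.5% and 86.2% of stellate-like cells against 30.3% and 27.9% of hepatocyte-like cells (unthinned 95.6% and 97% against 82% and 77.9%).

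Ccl19, which draws dendritic cells and naive T cells through Ccr7, was at 156 and 202 CPM in stellate-like cells and at 3.79 and 3.26 CPM in hepatocyte-like cells. It was found in 28.5% and 35.4% of thinned stellate-like cells (52.4% and 59.4% unthinned) against 0.94% and 1.45% of hepatocyte-like cells. The annotation also holds near-identical copies of Ccl19, so probes could read more than 1 of them. Cx3cl1, the membrane-tethered chemokine, was at 54.8 and 85.7 CPM in stellate-like cells, and Cxcl14, a chemokine of epithelia and fibroblasts, at 90.7 and 228 CPM. These 4 genes were highest in stellate-like cells of both libraries.

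Ccl2 and Ccl7, which call monocytes through Ccr2, also reached their highest level in stellate-like cells, with Ccl2 at 69.2 and 65.7 CPM and Ccl7 at 5.90 and 27.4 CPM. Few cells carried them: Ccl2 came from 20 of 206 and 29 of 335 stellate-like cells, and 51 of its 129 counts in the library labelled AEG-1DMAC were in 1 cell. Cxcl1, which calls neutrophils through Cxcr2, was at 15.6 and 46.8 CPM in stellate-like cells, and 53 of the 166 counts in the library labelled AEG-1fl/fl were in 1 cell. In the library labelled AEG-1DMAC its highest class was cholangiocyte-like instead, at 34.8 CPM, where 24 of 33 counts were in 1 cell. Hepatocyte-like cells held 81.9% and 69.4% of all Cxcl1 counts, at 19.9 and 22.1 CPM. This was above the stellate-like level in the library labelled AEG-1DMAC and below it in the other. Leaving out the cell with the most Cxcl1 counts in each class and library made hepatocyte-like cells its highest class.

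**Figure D1:**
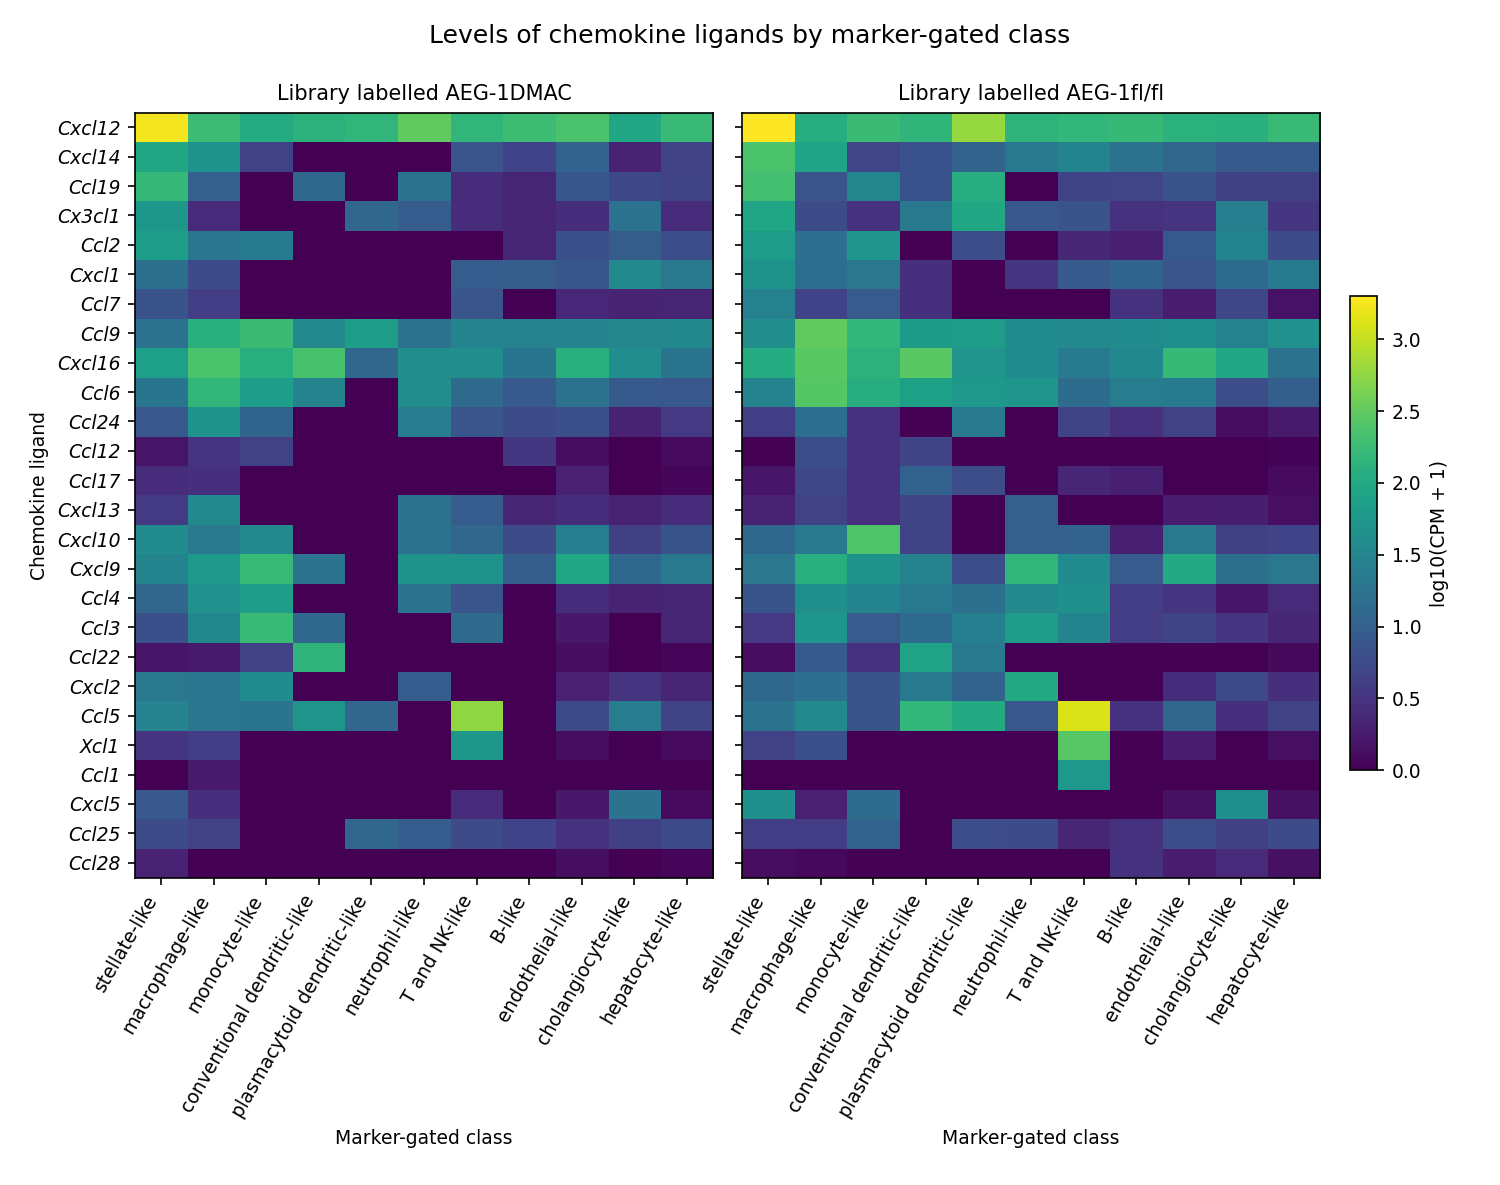
Levels of the 26 chemokine ligands (rows) in 11 marker-gated classes (columns) as log10(CPM + 1), with the library labelled AEG-1DMAC on the left and the library labelled AEG-1fl/fl on the right. Cxcl12 in stellate-like cells (1755 and 2091 CPM) and Ccl5 in T and NK-like cells (559 and 1305 CPM) are among the brightest fields of both panels.

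Macrophage-like cells were the highest class for 7 ligands. Cxcl16, a membrane-bound ligand of Cxcr6 and a scavenger of oxidised lipoprotein, was at 233 and 285 CPM in macrophage-like cells and at 218 and 283 CPM in conventional dendritic-like cells, so these 2 classes were close to each other. Endothelial-like cells followed with 116 and 164 CPM, and hepatocyte-like cells had 17.7 and 16.0 CPM. The share of thinned macrophage-like cells with Cxcl16 was 37% and 40.1% (62.2% and 68.1% unthinned), against 4.31% and 4.83% of hepatocyte-like cells.

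Ccl6, a ligand of Ccr1 found in rodents, was at 146 and 267 CPM in macrophage-like cells and at 6.78 and 9.06 CPM in hepatocyte-like cells. Ccl9, its neighbour in the genome and likewise a Ccr1 ligand, was at 125 and 309.7 CPM in macrophage-like cells. Ccl9 was also at 176 and 153 CPM in monocyte-like cells, which were its highest class in the library labelled AEG-1DMAC, and at 33.3 and 46.4 CPM in hepatocyte-like cells. Ccl24, an eosinophil chemokine that binds Ccr3, was at 47.0 and 14.4 CPM in macrophage-like cells, and Cxcl13, which draws B cells through Cxcr5, at 37.3 and 3.49 CPM. Hepatocyte-like cells held far less, at 2.53 and 0.725 CPM for Ccl24 and 1.59 and 0.362 CPM for Cxcl13. The remaining macrophage ligands, Ccl12 and Ccl17, held 37 and 30 counts over both libraries in this class.

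T and NK-like cells were the source of 3 ligands. Ccl5, made by effector T cells and NK cells and bound by Ccr1 among others, was at 559 CPM in the library labelled AEG-1DMAC and 1305 CPM in the other, next to 3.76 and 3.38 CPM in hepatocyte-like cells. Xcl1, the ligand of Xcr1 on cross-presenting dendritic cells, was at 54.8 and 277 CPM, and no other class exceeded 5.48 CPM among those with at least 20 counts. Ccl1, the ligand of Ccr8, had 0 counts there in the library labelled AEG-1DMAC and 45 in the other, and those 45 came from 3 of 111 cells.

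The other ligands had less clear sources. Ccl3 and Ccl4, inflammatory ligands of myeloid cells, and Cxcl9 and Cxcl10, interferon-induced ligands of Cxcr3, had their highest mean level in monocyte-like cells, but for none of the 4 was that class the highest in both libraries. Macrophage-like cells held the most counts of Ccl3 (34.0 and 52.5 CPM) and of Ccl4 (45.5 and 43.3 CPM). Without each gene's top cell, the highest class became macrophage-like for Ccl3, Ccl4 and Ccl22, endothelial-like for Cxcl9 and stellate-like for Cxcl5. Cxcl9 was nearly level between libraries in endothelial-like cells, at 91.7 and 104 CPM, and was found there in 113 of 305 and 128 of 385 cells. Ccl22, a Ccr4 ligand of mature dendritic cells, was highest in conventional dendritic-like cells at 138 and 79.8 CPM, with 24 of 24 and 30 of 42 counts in 1 cell each. Cxcl5, a neutrophil chemokine, was at 16.9 and 42.5 CPM in cholangiocyte-like cells and 6.98 and 44.3 CPM in stellate-like cells. Cxcl2, also a ligand of Cxcr2, was at 102 CPM (44 counts) in neutrophil-like cells of the library labelled AEG-1fl/fl and had 1 count in those of the other. Ccl25, a thymus and gut chemokine, stood at 4.49 and 4.68 CPM in hepatocyte-like cells, and Ccl28 there at 0.140 and 0.423 CPM, the only class in which Ccl28 reached 20 counts.

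Among receptors of myeloid cells, Ccr2, the receptor by which monocytes leave the marrow and enter tissue, was at 667 and 601 CPM in monocyte-like cells, followed by 293 and 268 CPM in conventional dendritic-like cells. In macrophage-like cells Ccr2 was at 82.9 and 174 CPM.

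Lymphocyte receptors marked the lymphoid classes. Cxcr3, the receptor of Cxcl9 and Cxcl10 on activated T cells, was at 129 and 202 CPM in T and NK-like cells, and Cxcr6, the receptor of Cxcl16 on liver-resident lymphocytes, at 91.8 and 123 CPM. Cxcr5, which guides B cells to Cxcl13, was at 64.0 and 60.5 CPM in B-like cells, and Ccr6, the Ccl20 receptor, at 22.9 and 43.9 CPM. Ccr4 had 10 and 14 counts in T and NK-like cells. Of these, Cxcr5 differed least between libraries, by a log2 ratio of 0.08.

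Among dendritic-like cells, Ccr7, the receptor that takes mature dendritic cells to lymph nodes, was at 309.9 and 289 CPM in the conventional class, where it came from 5 of 23 and 10 of 55 cells. Xcr1, found on cross-presenting dendritic cells, was at 115 and 139 CPM in the same class. Ccr9 was highest in plasmacytoid dendritic-like cells with 6 and 24 counts. Cxcr2 and Ccr1, receptors of neutrophils, were at 476 and 130.1 CPM in neutrophil-like cells of the library labelled AEG-1fl/fl and at 48.1 and 40.1 CPM in the 13 such cells of the other. Cxcr4, the receptor of Cxcl12, had no single class: it was highest in monocyte-like cells of the library labelled AEG-1DMAC (214 CPM) and in neutrophil-like cells of the other (121 CPM). Ccr3 was highest in macrophage-like cells with 22 counts over both, and Cxcr1 reached 20 counts only in hepatocyte-like cells, at 0.187 and 0.287 CPM, next to 48.1 and 13.9 CPM from 6 counts in neutrophil-like cells of each library.

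**Figure D2:**
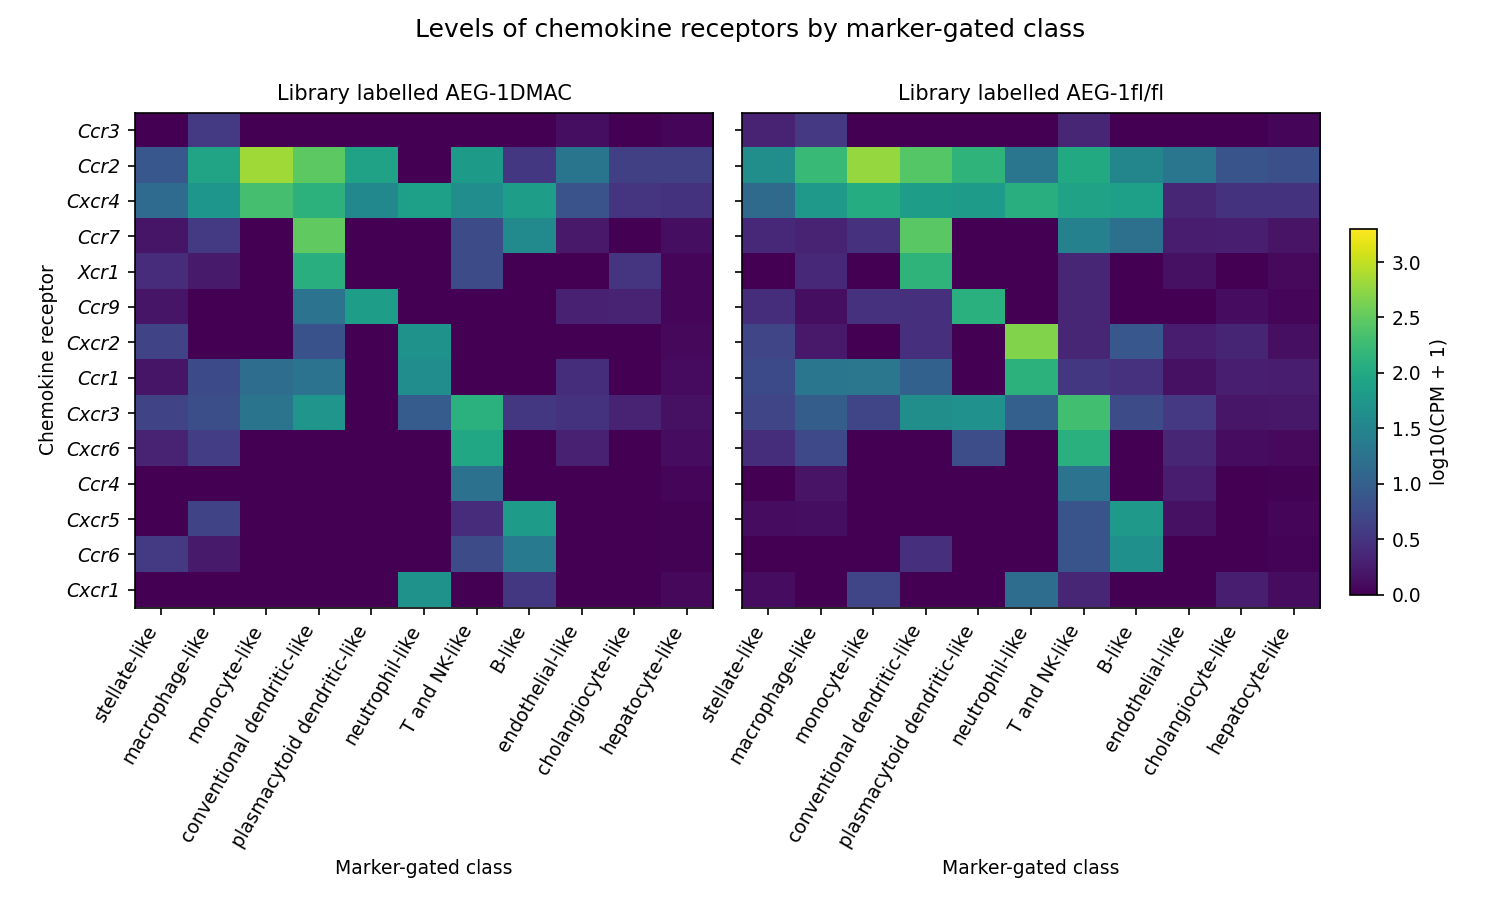
Levels of the 14 chemokine receptors (rows) in 11 marker-gated classes (columns) as log10(CPM + 1), with the library labelled AEG-1DMAC on the left and the library labelled AEG-1fl/fl on the right. Ccr2 is brightest in monocyte-like cells (667 and 601 CPM) and Ccr7 in conventional dendritic-like cells (309.9 and 289 CPM) of both.

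Of 22 known ligand and receptor pairs, compared by the class with the highest mean CPM over both libraries, 20 had their highest levels in different classes. That class was not the highest in each library by itself for the ligands Ccl3, Ccl4, Ccl9, Ccl25, Cxcl1, Cxcl2, Cxcl5, Cxcl9 and Cxcl10 and the receptor Cxcr4. The 2 pairs that shared a class were Ccl24 with Ccr3, in macrophage-like cells, and Cxcl2 with Cxcr2, in neutrophil-like cells, where Cxcl2 had 1 count in the library labelled AEG-1DMAC. Cxcl12 was highest in stellate-like cells and Cxcr4 in blood-derived classes, Cxcl16 in macrophage-like cells and Cxcr6 in T and NK-like cells, and Xcl1 in T and NK-like cells and Xcr1 in conventional dendritic-like cells. Pairs were listed from general knowledge of the family, and RNA of a ligand and of its receptor does not show that they met. The number expected with ligands and receptors paired at random was not worked out, so the 20 pairs are a description only.

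Between libraries, the comparison in macrophage-like cells bears most on the design, since Lyz2-driven Cre acts there. Ccl9, Ccl6 and Ccr2 were lower, and Ccl24 and Cxcl13 higher, in the library labelled AEG-1DMAC. With at least 20 counts in the class, 29 members could be compared, and 9 were lower by at least 2-fold (Ccl9, Ccl12, Ccl17, Ccl22, Cx3cl1, Cxcl1, Cxcl9, Ccr1 and Ccr2), where 3.72% of all 11536 genes compared were. Higher by at least 2-fold were 2 members, Ccl24 and Cxcl13, where 2.54% of all genes were. The median log2 ratio of the 29 members was -0.63 and that of all genes -0.06. Over 12 other ways to process the counts the 9 became 4 to 14. Ccr1 was lower by at least 2-fold in 12 of them, Ccl9 in 11, Ccl22 in 10, Ccr2 and Ccl12 in 8 and Ccl17 in 5, and Ccl24 and Cxcl13 were higher in 12. Of these 12 ways, 2 changed only the minimum count and left each ratio as it was.

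Ccl9 counted 334 in the library labelled AEG-1DMAC and 1865 in the other, 125 against 309.7 CPM, a log2 ratio of -1.31 (-1.48 to -1.14). Ccl9 was found in 17.4% and 32.1% of thinned macrophage-like cells (33.2% and 52.2% unthinned). Ccl6, with 392 and 1607 counts, had a log2 ratio of -0.87 (-1.03 to -0.71), short of 2-fold. Both neighbouring genes were thus lower in the library labelled AEG-1DMAC, Ccl9 by more than Ccl6. In hepatocyte-like cells the ratios of Ccl9 and Ccl6 were -0.48 and -0.42, and in stellate-like cells -1.36 and -0.67.

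Ccr2 had 222 counts in the macrophage-like cells of the library labelled AEG-1DMAC and 1047 in those of the other, a log2 ratio of -1.07 (-1.28 to -0.86). Ccr1, the receptor of Ccl6 and Ccl9 among others, had 12 and 114 counts and a log2 ratio of -2.08 (-3.07 to -1.22). These receptors were thus past 2-fold. Of the 6 receptors compared in this class, Cxcr3 (-0.70), Cxcr6 (-0.53), Cxcr4 (-0.15) and Ccr3 (0.07) were not.

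Cxcl13 counted 100 in 20 of 259 cells of the library labelled AEG-1DMAC and 21 in 10 of 680 cells of the other, a log2 ratio of 3.42 (2.73 to 4.17). Ccl24 counted 126 in 55 cells and 87 in 54 cells, a log2 ratio of 1.70 (1.30 to 2.11). Leaving out the cell with the most counts of the gene in each library gave 3.51 for Cxcl13 and 1.58 for Ccl24. Both genes were also higher in hepatocyte-like cells of the same library, by 2.13 for Cxcl13 and 1.81 for Ccl24, at the low levels given above. Cxcl12 was at 184 and 113 CPM in macrophage-like cells, a log2 ratio of 0.71 (0.54 to 0.88), and Cxcl16 had a ratio of -0.29 (-0.42 to -0.16).

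For several members 1 cell decided the value. Of the 715 Cxcl9 counts in macrophage-like cells of the library labelled AEG-1fl/fl, 559, or 78.2%, were in 1 cell. With all cells the log2 ratio of Cxcl9 was -1.02 (-1.28 to -0.77), and without the top cell of each library it was 0.48 (0.10 to 0.86), on the other side of 0. Of 87 Cxcl1 counts in the same cells, 49 were in 1 cell, and the ratio moved from -1.57 to -0.62 without it. Of the 122 Ccl4 counts in the library labelled AEG-1DMAC, 75 were in 1 cell, and Ccl4 moved from 0.07 to -1.21. Without their top cells, Ccl3 moved from -0.63 to -1.39 and Cxcl14 from -0.79 to -1.08. Ccl9, Ccr1 and Ccr2 moved little, to -1.33, -2.06 and -1.17. For Ccl12 and Ccl17, with 6 and 5 counts in the library labelled AEG-1DMAC, the counting intervals included 0.

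**Figure D3:**
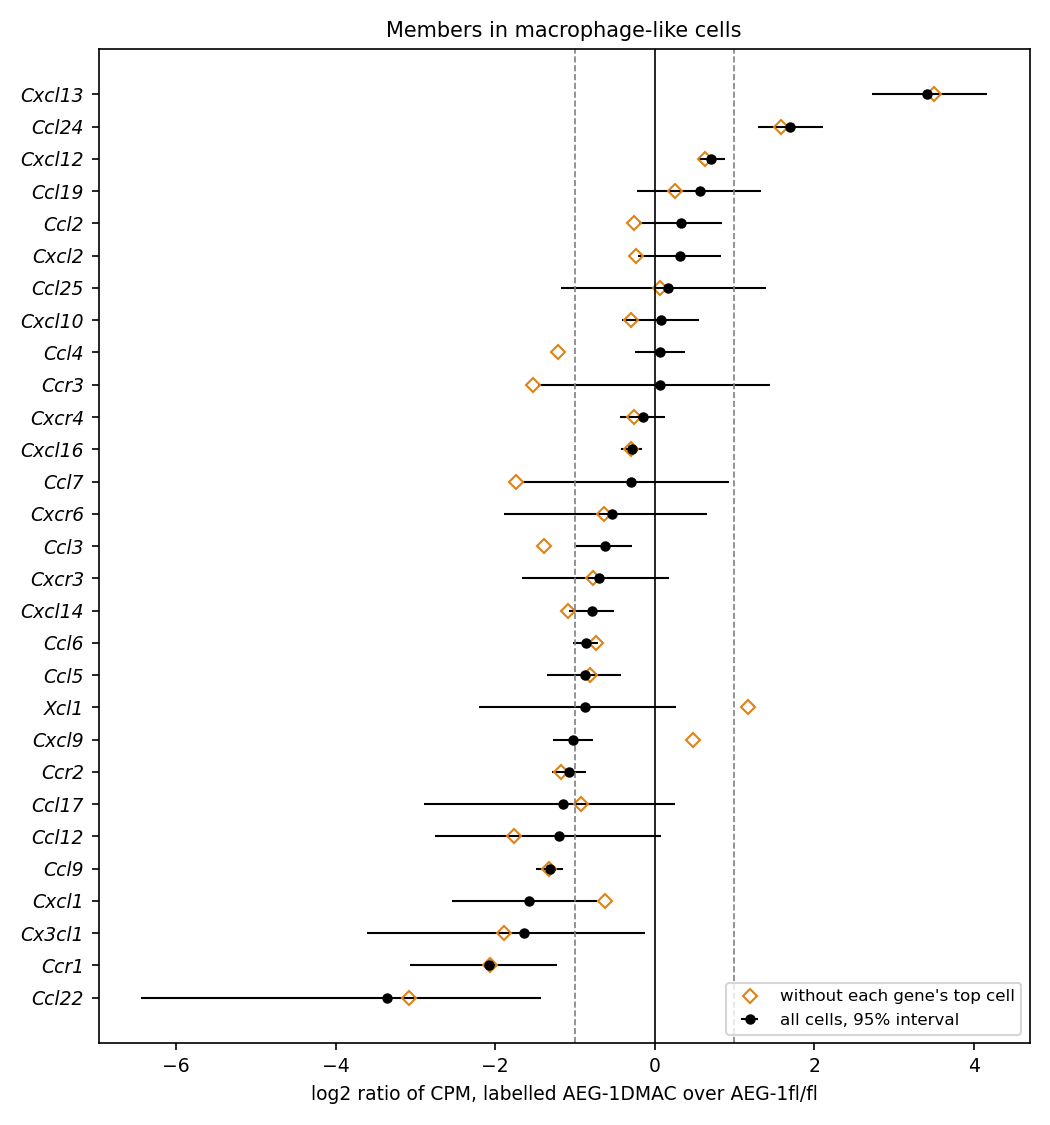
Log2 ratio of CPM (AEG-1DMAC over AEG-1fl/fl, by label) for the 29 members with at least 20 counts in macrophage-like cells. Black points with bars are all cells with the 95% counting interval, open orange diamonds leave out the cell with most counts of the gene in each library, and dashed lines mark 2-fold. Cxcl13 (3.42) and Ccl24 (1.70) lie to the right, Ccl9 (-1.31) and Ccr1 (-2.08) to the left, and Cxcl9 crosses 0 when its top cells are left out.

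Macrophage-like cells were not alike in the 2 libraries. They were divided into a Kupffer subset and a Gpnmb program subset by which of 2 marker lists took the larger share relative to all cells. The lists were Clec4f, Vsig4, Cd5l, Timd4, Folr2, Marco and Cd163 for the first, and Gpnmb, Trem2, Mmp12, Cd9, Itgax, Lpl and Fabp5 for the second. The Gpnmb program subset held 38 of 259 cells (14.7%, 10.6 to 19.6) in the library labelled AEG-1DMAC and 271 of 680 (39.9%, 36.2 to 43.6) in the other. This division is a cut through a continuous score, and 19 and 99 cells lay within 1.5-fold of it.

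Ccr2 belonged to the Gpnmb program subset. It was at 35.7 and 38.6 CPM in the Kupffer subset and at 456 and 325 CPM in the Gpnmb program subset, which is higher in the second by a log2 ratio of 3.67 in the library labelled AEG-1DMAC and 3.07 in the other. Within subsets the ratio between libraries was -0.11 (-0.53 to 0.30) in the Kupffer subset and 0.49 (0.22 to 0.75) in the Gpnmb program subset, where the undivided class gave -1.07. Neither subset alone thus showed the lower Ccr2 of the undivided class.

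Ccl9 and Ccl6 were higher in the Gpnmb program subset as well, by 1.53 and 1.28 for Ccl9 and by 0.88 and 0.89 for Ccl6 (log2, library labelled AEG-1DMAC first). Between libraries, Ccl9 had a ratio of -0.84 (-1.06 to -0.63) in the Kupffer subset and -0.60 (-0.93 to -0.29) in the Gpnmb program subset. Ccl6 had -0.51 and -0.52. Both genes were lower in the library labelled AEG-1DMAC within each subset, by less than 2-fold.

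Ccl24 and Cxcl13 were higher in the Kupffer subset. Ccl24 was lower in the Gpnmb program subset by a log2 ratio of -2.37 and -2.22, and Cxcl13 by -1.60 and -1.51. For Cxcl13 in the library labelled AEG-1fl/fl, with 16 and 5 counts in the 2 subsets, the interval of -3.32 to 0.00058 included 0. Within the Kupffer subset, Ccl24 was at 51.7 and 22.9 CPM, a log2 ratio between libraries of 1.17 (0.74 to 1.61), and Cxcl13 at 40.4 and 5.03 CPM, a ratio of 3.01 (2.23 to 3.87). In the Gpnmb program subset both rested on few counts, 3 and 14 for Ccl24 and 4 and 5 for Cxcl13. Ccr1 was at 2.10 and 8.48 CPM in the Kupffer subset, a ratio of -2.01 (-3.75 to -0.62), and at 23.3 and 30.6 CPM in the Gpnmb program subset, a ratio of -0.39 (-1.75 to 0.71).

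Counted by subset, 4 of 23 members were lower by at least 2-fold in the Kupffer subset (Ccl12, Cx3cl1, Cxcl1 and Ccr1) and 3 higher (Ccl24, Cxcl13 and Cxcl9), where 2.5% and 2.06% of all genes were. In the Gpnmb program subset 6 of 19 were lower (Ccl4, Ccl22, Cxcl1, Cxcl9, Cxcl10 and Xcl1) and 2 higher (Ccl2 and Cxcl2), where 7.54% and 5.67% were. Of the 9 members lower in the undivided class, Ccl9, Ccl17, Ccl22, Cxcl9 and Ccr2 were not among the 4 of the Kupffer subset. How much of the undivided ratios comes from the make-up of the class was not tested beyond these values.

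**Figure D4:**
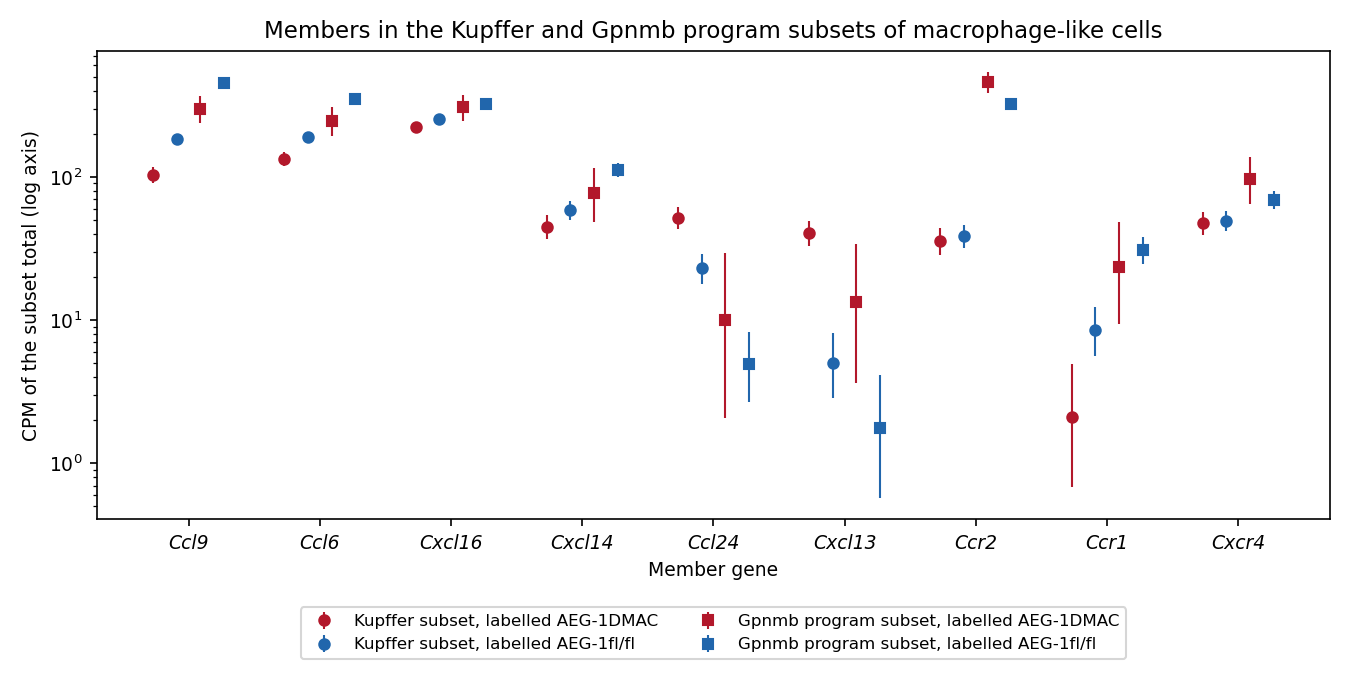
CPM (log axis) of 9 members in the Kupffer subset (circles) and the Gpnmb program subset (squares) of macrophage-like cells, red for the library labelled AEG-1DMAC and blue for the library labelled AEG-1fl/fl, with exact Poisson 95% intervals. Ccr2 is near 36 to 39 CPM in both Kupffer subsets and at 456 and 325 CPM in both Gpnmb program subsets, while Cxcl13 separates the libraries within the Kupffer subset.

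In T and NK-like cells the ligands Ccl5 and Xcl1 were lower in the library labelled AEG-1DMAC, while the receptors Cxcr3 and Cxcr6 differed by less than 2-fold. The relative share of hepatocyte markers in these cells also differed, at 73.3% in the library labelled AEG-1DMAC and 57% in the other. How much of the ratios below comes from that difference was not tested. Of 16 members compared, 7 were lower by at least 2-fold (Ccl1, Ccl3, Ccl4, Ccl5, Cxcl14, Xcl1 and Ccr7) and 0 higher, where 8.35% and 3.06% of all genes were. The median log2 ratio was -0.83 for the members and -0.20 for all genes. Ccl5 had 347 and 1055 counts and a log2 ratio of -1.22 (-1.40 to -1.05), and it was found in 42.6% and 60.9% of thinned cells (60% and 64.9% unthinned). Xcl1 had 34 counts in 12 of 60 cells and 224 counts in 48 of 111 cells, a log2 ratio of -2.34 (-2.90 to -1.81).

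Ccl4, with 4 and 36 counts, had a ratio of -2.79 (-4.74 to -1.31), and Ccl3, with 8 and 24 counts, -1.20. Ccl1 was at least 11.52-fold higher in the library labelled AEG-1fl/fl, counting 0 as 3 counts, but in 3 cells. Of the 24 Cxcl14 counts in that library 22 were in 1 cell. The receptors stood nearer to 0 apart from Ccr7 at -2.49 (3 and 22 counts), with Cxcr3 at -0.65 (-1.05 to -0.25), Cxcr6 at -0.42 (-0.91 to 0.07) and Cxcr4 at -0.98. Without the top cells, Ccl5 was at -1.48 and Xcl1 at -2.67.

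In stellate-like cells Cxcl14, Cxcl5, Cxcl1 and Ccl7 were lower and Cxcl10 was higher in the library labelled AEG-1DMAC, while Cxcl12, Ccl19 and Cx3cl1 differed by less than 2-fold. Of 22 members, 6 were lower by at least 2-fold (Ccl7, Ccl9, Cxcl1, Cxcl5, Cxcl14 and Ccr2) and 2 higher (Ccl24 and Cxcl10), where 5.07% and 1.19% of all genes were. Cxcl12 had a log2 ratio of -0.25 (-0.31 to -0.19), Ccl19 -0.38 (-0.58 to -0.18) and Cx3cl1 -0.65 (-0.98 to -0.32).

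Cxcl14 had 169 and 807 stellate-like counts, a log2 ratio of -1.33 (-1.57 to -1.09), and was found in 13.3% and 30.6% of thinned cells (25.2% and 51.9% unthinned) against 0.627% and 1.85% of hepatocyte-like cells. In hepatocyte-like cells the ratio of Cxcl14 was -1.15. Cxcl5 had 13 and 157 counts, in 9 and 40 cells, and a ratio of -2.67 (-3.61 to -1.85). Cxcl1 and Ccl7 had ratios of -1.59 (-2.21 to -1.01) and -2.21 (-3.26 to -1.31). All 4 kept a lower level in the library labelled AEG-1DMAC without their top cells. Cxcl10 had 72 and 42 counts in 19 cells of each library, a ratio of 1.71 (1.14 to 2.29). Of these, 30 of the 72 and 12 of the 42 were in 1 cell, and without the top cells the ratio was 1.41 (0.70 to 2.14).

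**Figure D5:**
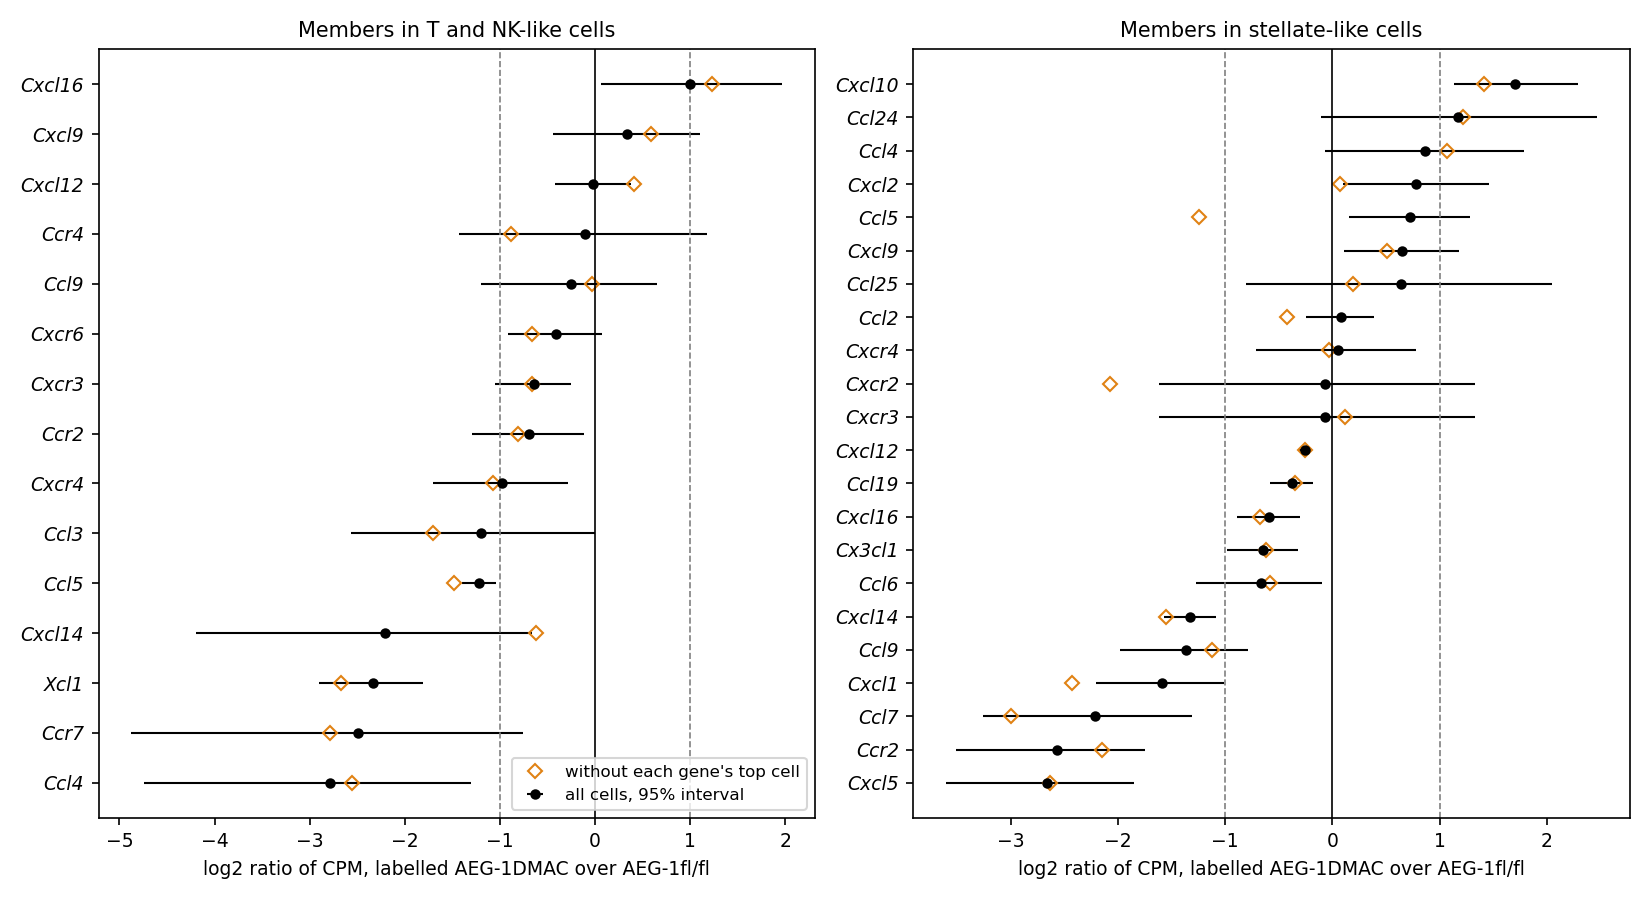
Log2 ratio of CPM (AEG-1DMAC over AEG-1fl/fl, by label) in T and NK-like cells (left) and stellate-like cells (right), with 95% counting intervals in black, values without each gene's top cell as orange diamonds and 2-fold as dashed lines. Ccl1, with 0 counts in 1 library, has no point. Xcl1 (-2.34) and Ccl5 (-1.22) lie left of the line in T and NK-like cells, and Cxcl12 (-0.25) lies near 0 in stellate-like cells.

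The remaining classes gave mixed directions. In hepatocyte-like cells 4 of 34 members were lower (Ccl17, Ccl28, Cxcl14 and Ccr1) and 4 higher (Ccl7, Ccl12, Ccl24 and Cxcl13), where 3.19% and 2% of all genes were. In endothelial-like cells Ccl5 was lower and Cxcr4 higher among 14 members (4.13% and 1.91%), and Cxcl12, at 224 and 126 CPM, had a ratio of 0.84. In cholangiocyte-like cells 4 of 12 were lower (Ccl2, Cxcl5, Cxcl14 and Cxcl16) and 2 higher (Ccl5 and Cxcl1), where 6.54% and 1.31% were.

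B-like cells had 3 of 10 members lower (Ccl6, Cxcl14 and Ccr2) and Ccr7 higher (5.2% and 1.96%), with Cxcr5 at 0.08. Conventional dendritic-like cells had Ccl5 and Ccl6 lower among 11 (6.82%) and 0 higher (8.33%), and Ccr7, Xcr1 and Ccr2 there had ratios of 0.10, -0.27 and 0.13. Monocyte-like cells had Ccl2 and Cxcl10 lower and Ccl3, Ccl4 and Cxcl9 higher among 11 (5.16% and 5.91%), while Ccr2 stood at 0.15 (-0.12 to 0.42). Neutrophil-like cells had 5 of 9 lower (Ccl3, Cxcl2, Cxcl9, Ccr1 and Cxcr2) and Cxcl12 higher, where 14.5% and 5.31% were, on the 13 cells described above. In 52 of 173 combinations of a member and a class, 1 cell held at least as many of a library's counts as all its other cells together.

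Over all kept cells, where class shares and levels act together and cannot be told apart, 15 of 40 members were lower by at least 2-fold in the library labelled AEG-1DMAC and 2 higher, against 8.75% and 1.07% of all genes. The median log2 ratio of the members was -0.83 and that of all genes -0.14. Over all deposited cells, member counts summed to 435 CPM in the library labelled AEG-1DMAC and 623 CPM in the other. Cxcl12 alone held 16850 of 34604 and 22648 of 56307 of these counts. Within classes, the summed ligands were at 2413 and 3050 CPM in stellate-like, 1069.6 and 1431 CPM in macrophage-like and 971 and 2037 CPM in T and NK-like cells. The summed receptors were at 159 and 271 CPM in macrophage-like cells and 913 and 742 CPM in monocyte-like cells.

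Other genes of chemokine signalling, a list of 54 platelet chemokines, scavenger receptors, G protein, kinase and integrin genes of which 51 were measured, included 46 that could be compared in macrophage-like cells. Of these, 2 were lower by at least 2-fold and 1 higher, where 3.72% and 2.54% of all genes were. Their median log2 ratio was -0.17 and that of all genes -0.06. Pf4, a chemokine stored in platelets and also made by macrophages, was at 18.7 and 96.8 CPM, a ratio of -2.37 (-2.82 to -1.96). Itgam, an integrin subunit of myeloid cells, was at 37.0 and 133 CPM, a ratio of -1.85 (-2.17 to -1.55). Of the other genes named by the same rule, Vav3 had -0.77, Grk5 0.18, the Src-family kinase Fgr 0.19 and Rasgrp2 0.48. Ppbp, a further platelet chemokine, was the gene that was higher, with 27 and 11 counts, of which 19 of the 27 were in 1 cell.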

How the data were processed

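Fixed livers were profiled with 10x Genomics probe kits, and the authors deposited gene by cell count matrices, raw counts made with Cell Ranger 7.1.0 per the file headers and the submitters' processing notes (mm10). 1 gene with a matching symbol is not reported here and is in no count of members. Members and gene lists were chosen with earlier results of these data known. Cells stayed in with 100 or more genes detected and no more than 10% of counts from mitochondrial genes. A cell entered a class when at least 2 markers were present and their summed counts exceeded 4 times the rate over all cells (Poisson tail under 0.001). Cells passing 2 gates at close strength, such as doublets, stayed unassigned, and no doublet caller was run. Hepatocyte-like cells were those in no gate with at least 0.5 of the pooled hepatocyte-marker share. Counts were summed per library and class and divided by the class total, so deep cells weigh more than shallow ones. The deepest 10% of cells held 49.5% and 41.3% of macrophage-like counts (library labelled AEG-1DMAC first). They held 45.6% and 44.7% of stellate-like and 55.8% and 60.7% of T and NK-like counts. Shares of cells used cells thinned to 2000 counts, and the thinned shares leave out shallower cells. Hepatocyte RNA was subtracted as an alternative, in the share given by hepatocyte markers. Members with at least 100 counts were described with values, and the others by counts. Python 3.11.15, NumPy 2.4.6, SciPy 1.17.1, pandas 2.3.3 and Scanpy 1.11.5 were used. Count ratios were tested on simulated Poisson class sums, which hold no added variation between cells.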

Additional observations from a re-analysis of the deposited data

Results flagged for a closer look

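For 8 members the 2 libraries differed by at least 2-fold in opposite directions in different classes. The same count over all genes was not made, so the 8 members have no background to be read against. The difference between classes was not tested, since each class has 1 library per label, and all ratios here are log2, AEG-1DMAC over AEG-1fl/fl by label. Most rest on few cells.

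Ccl3 had a ratio of -1.20 in T and NK-like cells and 4.42 in monocyte-like cells, where 41 of 48 counts of the library labelled AEG-1DMAC were in 1 cell. Ccl4 had -2.79 in T and NK-like cells and 1.18 in monocyte-like cells, where 18 of 19 counts were in 1 cell and the ratio without top cells was -1.48. Ccl5 had -1.56 in conventional dendritic-like cells, -1.22 in T and NK-like cells and -1.40 in endothelial-like cells, against 3.72 in cholangiocyte-like cells, where 18 of 22 counts were in 1 cell. Ccl7 had -2.21 in stellate-like cells and 1.37 in hepatocyte-like cells.

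Ccr7 had -2.49 in T and NK-like cells and 1.26 in B-like cells, where it came from 18 and 14 cells with at most 3 counts in any of them. Cxcl1 had -1.57 in macrophage-like and -1.59 in stellate-like cells and 1.40 in cholangiocyte-like cells, where 24 of 33 counts were in 1 cell. Cxcl10 had -2.79 in monocyte-like cells, where 76 of 124 counts of the library labelled AEG-1fl/fl were in 1 cell, and 1.71 in stellate-like cells. Cxcl9 had -1.02 in macrophage-like cells and -1.61 in neutrophil-like cells, where 58 of 63 counts were in 1 cell, and 1.78 in monocyte-like cells, where 35 of 48 were.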

How the results depend on the processing

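No paired analysis was possible because each label has 1 library. The alternatives changed 1 choice at a time, and 3 of them were chosen after seeing the data (leaving out each gene's top cell, the Kupffer subset alone, and no neutrophil-like class). Of 801 single log2 ratios under the alternatives, 77 with at least 1 count and 58 with at least 50 could not move. Those settings change only the minimum count. With these included, 679 of the 801 stayed within the counting interval of the reported value. Another 116 moved outside it and 6 that had been past 2-fold changed sign. The cause was not tested for any of them. Mtdh in macrophage-like cells was 3.70 with the hepatocyte-like profile subtracted and 2.99 under a stricter gate. The 9 members lower in macrophage-like cells became 4 in the Kupffer subset alone, 5 with at least 50 counts, with subtraction and under a stricter gate, and 14 with classes from clusters. The 2 higher ones became 6 with at least 1 count and 5 under a stricter gate. In the other classes, 14 higher values became 51 with at least 1 count, 8 with at least 50, 23 with subtraction and 9 without top cells, and 34 lower values became 106 and 18 with at least 1 and 50 counts. Without the neutrophil-like class they were 13 higher and 29 lower. For the other pathway genes, 1 higher became 0 with at least 50 counts, under a stricter gate and without top cells, and 2 with subtraction. Cxcl9 in macrophage-like cells, at -1.02, became 1.10 in the Kupffer subset, 0.39 as a mean over cells, 1.21 under a stricter gate and 0.48 without top cells. Cxcl14 in T and NK-like cells became 1.57 as a mean over cells, and Cxcl5 in cholangiocyte-like cells became 0.038 with subtraction.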
